A study of Rattus norvegicus with 9 samples.

Results

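The genes described here are 8 members of the extrinsic apoptosis pathway, the route by which a ligand outside the cell switches on cell death: Tnfsf10, Tnfrsf10b, Fas, Tnfrsf1a, Fadd, Casp8, Cflar and Ripk1. They were taken by name from 40154 gene rows, 11124 of which were abundant enough to test, and all 8 were among those tested. Expression was measured by RNA sequencing of whole liver in 9 samples from Sprague-Dawley rats, 3 per group. The HepLPC group were rats with cirrhosis that received HepLPCs, progenitor-like cells of the liver derived from hepatocytes, and the PBS group were rats with cirrhosis that received phosphate-buffered saline in their place. The normal livers came from rats that had no cells, no saline and no carbon tetrachloride (CCl4), the liver toxin that the study's design text names. All rats were wild type and 5 months old. The CCl4 schedule, the cell dose and the interval between injection and sampling are not given in the sources used here. The normal rats lacked both the injury and the injection, so the effects of these on PBS against normal livers cannot be told apart. Programmed death of stellate cells, which store vitamin A and form scar in the liver, is named in the study's title, and these genes were compared among the 3 groups for that reason.

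In the extrinsic pathway, ligands of the tumour necrosis factor (TNF) family bind receptors whose cytoplasmic tail carries a death domain. TRAIL, the product of Tnfsf10, binds the death receptor encoded by Tnfrsf10b. Fas ligand binds Fas, and TNF binds TNF receptor 1, encoded by Tnfrsf1a. The adaptor FADD couples these receptors to caspase-8, the initiator protease that starts the caspase cascade. FLIP, the product of Cflar, resembles caspase-8 but lacks its protease activity and limits its activation, while the kinase RIPK1 sits at the branch between survival signalling through NF-kB, apoptosis and necroptosis. Hepatocytes are known to be sensitive to Fas, and activated stellate cells have been described as targets of TRAIL.

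Promoter windows running from 250 bases before to 50 bases after the annotated gene start were read for 6 of the 8 genes from the RefSeq table of the rat assembly GRCr8. Tnfrsf10b and Casp8 had no entry. Of these, 3 are shown: Tnfsf10, called in both comparisons with PBS livers, Fas, whose PBS libraries were likewise the highest, and Cflar, the gene with the narrowest range. Tnfsf10 lies at chr2:112136689-112136988 on the plus strand, Fas at chr1:241211905-241212204 on the plus strand and Cflar at chr9:67679299-67679598 on the plus strand. Capitals mark matches, on either strand, to 5 motifs: the core of the interferon response element (GAAA repeated after any 2 bases), the NF-kB motif (GGGA, then TTCC after any 2 bases), the AP-1 motif (TGA, then TCA after any 1 base), the GC box GGGCGG and the TATA box TATAAA.
Tnfsf10: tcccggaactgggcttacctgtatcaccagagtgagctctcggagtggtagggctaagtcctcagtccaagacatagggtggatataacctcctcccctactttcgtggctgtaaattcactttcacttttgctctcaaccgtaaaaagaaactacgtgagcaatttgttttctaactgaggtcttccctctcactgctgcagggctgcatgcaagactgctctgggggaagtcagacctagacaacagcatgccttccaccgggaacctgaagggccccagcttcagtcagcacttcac
Fas: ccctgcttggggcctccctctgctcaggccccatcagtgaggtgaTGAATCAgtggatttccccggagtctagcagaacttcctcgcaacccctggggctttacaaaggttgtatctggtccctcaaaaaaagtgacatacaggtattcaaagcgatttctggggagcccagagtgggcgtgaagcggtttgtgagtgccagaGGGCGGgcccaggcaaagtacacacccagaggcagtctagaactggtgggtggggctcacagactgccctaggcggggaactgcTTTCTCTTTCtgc
Cflar: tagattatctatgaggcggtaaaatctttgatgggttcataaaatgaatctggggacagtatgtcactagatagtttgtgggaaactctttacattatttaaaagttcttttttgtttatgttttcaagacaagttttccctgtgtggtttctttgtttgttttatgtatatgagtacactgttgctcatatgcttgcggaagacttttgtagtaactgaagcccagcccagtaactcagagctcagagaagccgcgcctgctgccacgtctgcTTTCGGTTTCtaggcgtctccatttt
The Tnfsf10 window held none of the 5 motifs. The Fas window held an AP-1 match from base 46, a GC box from base 204 and an interferon element core from base 288, counted from 1 at the 5′ end. The Cflar window held an interferon element core from base 275. None of these matches overlapped another. Among all 33469 promoter windows of the same length, 3.92% held the interferon element core, 1.3% the NF-kB motif, 7.33% the AP-1 motif, 33.1% the GC box and 14.2% the TATA box. These are matches of letters only.

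Levels are in RPKM as the authors deposited them, that is, reads divided by gene length in kilobases and by the library's reads in M. Whole reads could be worked back from the RPKM values, and the libraries held 17.4 to 21.8 M of them. The 8 genes rested on between 21 reads (Fadd in HepLPC replicate 2) and 1722 reads (Tnfrsf1a in PBS replicate 2) per library. Fold changes are given as log2, from group means of log2(RPKM + 1), with the standard error (SE) and with an adjusted p from limma over all 11124 tested genes. A gene was called at an adjusted p under 0.05. PBS replicate 1 and HepLPC replicate 2 stood apart from the other libraries: longer genes lay lower, relative to the group mean, in these libraries, with a Spearman correlation of deviation and length over genes of -0.564 and -0.528, against -0.157 to 0.423 in the other 7 libraries. The labels number the replicates without calling them separate animals, and the p-values therefore reflect a spread among samples that may in part be technical.

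Of the 8 genes, 1 fell and none rose in HepLPC against PBS livers, where 2.93% of all tested genes were called lower and 0.135% higher. In PBS against normal livers 2 rose and none fell, where 10.4% of all tested genes were called higher and 0.944% lower. Between HepLPC and normal livers 0 of the 8 were called by limma, which called 0.0449% of all tested genes higher, 0.036% lower and 0.0809% in either direction. Of the 8, 1 had an unadjusted limma p under 0.05. Voom on the recovered reads called 0 of the 8 and 0 of all tested genes. The 3 libraries of one group all lay below those of the other for 3 genes in HepLPC against PBS livers (Tnfsf10, Fas and Casp8) and above them for 0, which held for 15.6% of all tested genes below, 2.79% above and 18.4% either way. They lay above for 6 genes and below for 0 in PBS against normal livers (all but Fadd and Ripk1), which held for 32.7% of all tested genes above, 4.92% below and 37.7% either way. They lay above for 1 gene, Tnfrsf10b, and below for 0 in HepLPC against normal livers, which held for 12.3% above, 3.51% below and 15.8% either way. The median log2 fold change of the 8 genes was -0.31 in HepLPC against PBS livers, beside -0.145 for all tested genes, and 0.28 in PBS against normal livers, beside 0.18 for all tested genes. The fold changes of these 2 comparisons share the PBS libraries, so they are not independent. In whole liver, a change in the number of cells of a type and a change in RNA per cell cannot be told apart.

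**Figure D1:**
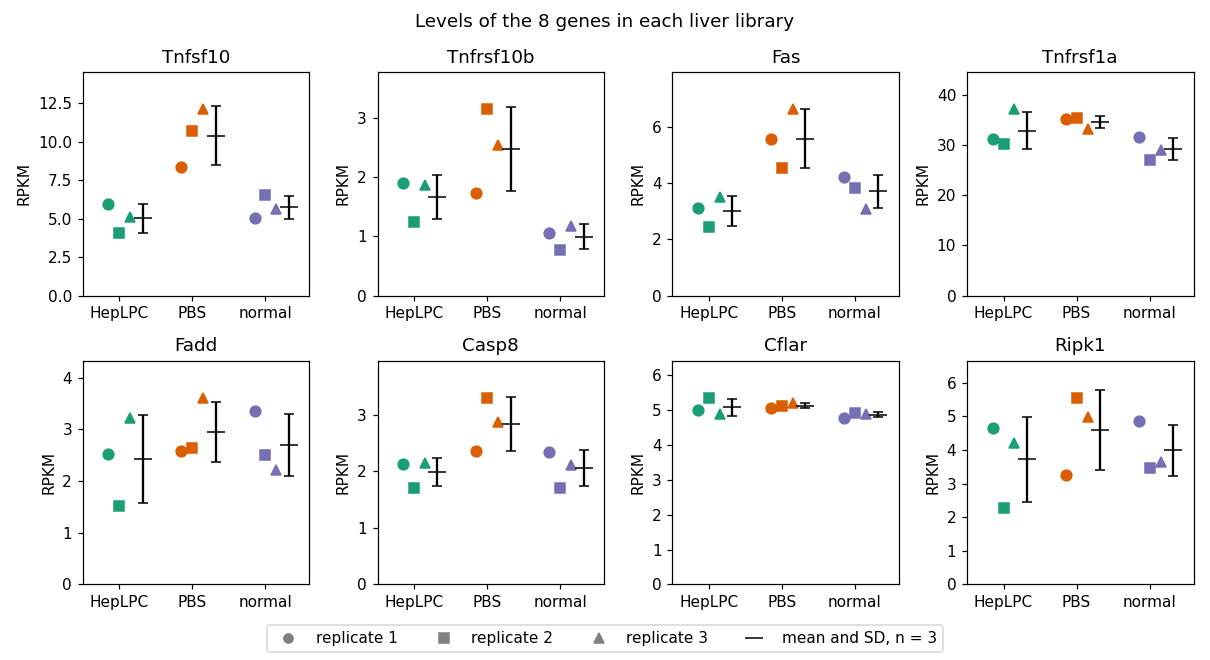
RPKM of each gene (y axis, from 0) in the 3 HepLPC, 3 PBS and 3 normal liver libraries, with 1 symbol per replicate and a bar for the mean and SD (n = 3). Tnfsf10 is higher in every PBS library than in any HepLPC or normal library, while Cflar lies between 4.78 and 5.35 RPKM in all 9.

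The ligand Tnfsf10 was the gene of the 8 that was called in both comparisons with PBS livers. It was at 5.92, 4.04 and 5.08 RPKM in HepLPC replicates 1 to 3, 8.36, 10.7 and 12.1 RPKM in PBS replicates 1 to 3 and 5.06, 6.54 and 5.64 RPKM in normal replicates 1 to 3. Every PBS library lay above every library of the other groups, while the HepLPC and normal ranges overlapped. Tnfsf10 fell in HepLPC livers to a mean of 5.02 ± 0.942 RPKM, against 10.4 ± 1.89 RPKM in PBS livers (SD, n = 3 each; log2 fold change -0.92, SE 0.17, limma adjusted p = 0.0235), which is 0.483 of the PBS mean. In PBS livers it was 1.81 times the normal mean of 5.75 ± 0.747 RPKM (SD, n = 3; 0.75, SE 0.17, limma adjusted p = 0.0233). HepLPC and normal livers differed by -0.17 (SE 0.17, limma adjusted p = 0.823), with a 95% interval from -0.56 to 0.21. The fall in HepLPC livers lost its call in 6 of 17 alternatives, among them those without PBS replicate 2 (limma adjusted p = 0.0685), PBS replicate 3 (0.107), HepLPC replicate 2 (0.0568) or HepLPC replicate 3 (0.0547) and the one with only the HepLPC and PBS libraries in the model (0.0841). The rise in PBS livers also lost its call in 6 of 17, among them those without normal replicate 1 (limma adjusted p = 0.0884), normal replicate 3 (0.0772), PBS replicate 2 (0.0687) or PBS replicate 3 (0.101) and the one rescaled by the median of ratios (0.53, adjusted p = 0.0715).

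Tnfrsf10b, the receptor for this ligand, was the least abundant of the 8 genes. It was at 1.90, 1.25 and 1.87 RPKM in HepLPC replicates 1 to 3, 1.73, 3.15 and 2.55 RPKM in PBS replicates 1 to 3 and 1.051, 0.769 and 1.17 RPKM in normal replicates 1 to 3. All 6 libraries of cirrhotic livers, injected with cells or with saline, lay above all 3 normal libraries, and the HepLPC and PBS ranges overlapped through PBS replicate 1. Tnfrsf10b rose in PBS livers to 2.48 ± 0.71 RPKM, against 0.997 ± 0.206 RPKM in normal livers (SD, n = 3 each; log2 fold change 0.78, SE 0.18, limma adjusted p = 0.0246), a ratio of means of 2.48. The call was lost in 6 of 17 alternatives, among them those without any 1 of the 3 normal libraries (limma adjusted p = 0.0694, 0.104 and 0.0569), without PBS replicate 2 (0.0763) and without PBS replicate 3 (0.0925). HepLPC livers, at 1.67 ± 0.368 RPKM, differed from PBS livers by -0.37 (SE 0.18, limma adjusted p = 0.362; 95% interval from -0.78 to 0.04) and from normal livers by 0.41 (SE 0.18, limma adjusted p = 0.533; 95% interval from 0.01 to 0.82). The Tnfrsf10b values rested on 46 to 70 reads in HepLPC, 59 to 124 in PBS and 32 to 48 in normal libraries.

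Fas, the receptor for Fas ligand, was at 3.10, 2.43 and 3.49 RPKM in HepLPC replicates 1 to 3, 5.56, 4.54 and 6.62 RPKM in PBS replicates 1 to 3 and 4.22, 3.83 and 3.07 RPKM in normal replicates 1 to 3. As with Tnfsf10, the PBS libraries lay above those of both other groups, and the HepLPC and normal ranges overlapped. Neither difference passed the threshold: the fold change was -0.71 in HepLPC against PBS livers (SE 0.17, limma adjusted p = 0.0557; 95% interval from -1.09 to -0.34) and 0.48 in PBS against normal livers (SE 0.17, limma adjusted p = 0.1; 95% interval from 0.10 to 0.85). With a weight estimated for each library both passed (limma adjusted p = 0.0393 and 0.0191). After rescaling by the median of ratios the second became 0.28 (adjusted p = 0.325).

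Tnfrsf1a, the TNF receptor with a death domain, was the most abundant of the 8, above 85.4% of all tested genes in mean RPKM over the 9 libraries. Its level was 31.3, 30.2 and 37.1 RPKM in HepLPC replicates 1 to 3, 35.2, 35.3 and 33.3 RPKM in PBS replicates 1 to 3 and 31.5, 27.1 and 29.0 RPKM in normal replicates 1 to 3. The highest library was 1.37 times the lowest. The fold change was -0.08 in HepLPC against PBS livers (SE 0.12, limma adjusted p = 0.763; 95% interval from -0.35 to 0.19) and 0.24 in PBS against normal livers (SE 0.12, limma adjusted p = 0.235; 95% interval from -0.03 to 0.51). After rescaling by the median of ratios the first turned to 0.11 (adjusted p = 0.759) and the second became 0.005 (adjusted p = 0.99). The PBS and normal ranges did not overlap, which also held for 32.7% of all tested genes in that direction.

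Among the proteins that assemble on the receptors, Casp8 was at 2.12, 1.71 and 2.15 RPKM in HepLPC replicates 1 to 3, 2.35, 3.30 and 2.86 RPKM in PBS replicates 1 to 3 and 2.34, 1.70 and 2.12 RPKM in normal replicates 1 to 3. The PBS range lay just above both others. The fold change was -0.35 in HepLPC against PBS livers (SE 0.14, limma adjusted p = 0.262) and 0.33 in PBS against normal livers (SE 0.14, limma adjusted p = 0.177). Without both PBS replicate 1 and HepLPC replicate 2 the PBS against normal difference passed (0.42, limma adjusted p = 0.0408), and it also passed with library weights (0.39, adjusted p = 0.0248), while HepLPC against PBS stayed above the threshold in both fits. After rescaling by the median of ratios the values became -0.22 in HepLPC against PBS and 0.15 in PBS against normal livers (adjusted p = 0.488 and 0.524).

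Cflar, the caspase-8 inhibitor, varied least. It was at 4.99, 5.35 and 4.90 RPKM in HepLPC replicates 1 to 3, 5.05, 5.11 and 5.20 RPKM in PBS replicates 1 to 3 and 4.78, 4.93 and 4.90 RPKM in normal replicates 1 to 3. Its highest library was 1.12 times its lowest, the smallest such ratio of the 8 genes, on 871 to 1097 reads. The fold change was -0.01 in HepLPC against PBS livers (SE 0.10, limma adjusted p = 0.966; 95% interval from -0.24 to 0.22) and 0.06 in PBS against normal livers (SE 0.10, limma adjusted p = 0.739; 95% interval from -0.17 to 0.29). After rescaling by the median of ratios these became 0.15 and -0.14, neither called.

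The adaptor Fadd and the kinase Ripk1 spread more within groups than between them. Fadd was at 2.53, 1.52 and 3.21 RPKM in HepLPC replicates 1 to 3, 2.59, 2.64 and 3.61 RPKM in PBS replicates 1 to 3 and 3.36, 2.50 and 2.21 RPKM in normal replicates 1 to 3, on 21 to 51 reads. Ripk1 was at 4.67, 2.28 and 4.20 RPKM in HepLPC replicates 1 to 3, 3.25, 5.55 and 4.99 RPKM in PBS replicates 1 to 3 and 4.87, 3.47 and 3.65 RPKM in normal replicates 1 to 3. HepLPC replicate 2 and PBS replicate 1, the 2 libraries that stood apart, held the lowest Ripk1 value of their groups. The same held for Tnfsf10, Tnfrsf10b and Casp8. In HepLPC replicate 2 Fadd, with the shortest gene model of the 8 at 716 bases, was also lowest, and Cflar, with the longest at 10217 bases, was highest. The part of gene length in these values was not tested. For Fadd the fold change was -0.23 in HepLPC against PBS livers (SE 0.21, limma adjusted p = 0.618) and 0.10 in PBS against normal livers (SE 0.21, adjusted p = 0.801). For Ripk1 it was -0.26 (SE 0.24, limma adjusted p = 0.618) and 0.15 (SE 0.24, adjusted p = 0.724). Without the 2 libraries the Ripk1 values were -0.21 (limma adjusted p = 0.44) and 0.34 (adjusted p = 0.101).

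**Figure D2:**
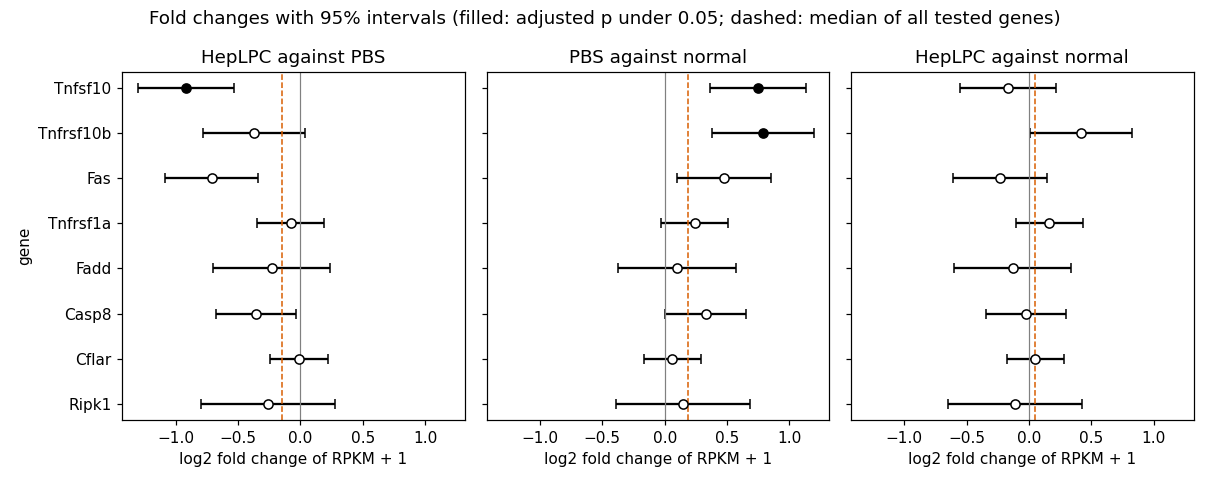
Log2 fold change of RPKM + 1 (x axis) with its 95% interval for each gene (y axis) in HepLPC against PBS, PBS against normal and HepLPC against normal livers. Filled points are called at an adjusted p under 0.05, and the dashed line is the median of all 11124 tested genes, at -0.145, 0.184 and 0.05.

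RPKM is per length, so levels of different genes can be set beside each other, but only roughly. Deviations followed gene length in PBS replicate 1 and HepLPC replicate 2 (Spearman correlation -0.564 and -0.528). In all 3 groups Tnfrsf1a was highest by mean RPKM, with no overlap with the next gene, and Tnfrsf10b was lowest. In HepLPC livers the order below Tnfrsf1a was Cflar, Tnfsf10, Ripk1, Fas, Fadd, Casp8 and Tnfrsf10b, and the ranges of each neighbouring pair in that order overlapped. In PBS livers Tnfsf10 stood second, apart from Fas below it, and the ranges of neighbours from Fas down overlapped. In normal livers Tnfsf10 was also second and apart from Cflar, and Tnfrsf10b was apart from Casp8, while the other neighbours overlapped.

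Ratios of 2 genes within a library were examined for 3 pairs in the 3 comparisons, 9 in all, as log2 ratios of RPKM + 1. The genes of each pair differ in length, and the part of gene length in the ratios was not tested. The added 1 draws the ratios of low genes towards 0, so the log2 ratios of plain RPKM, an alternative chosen after seeing the data, are given as well. With 3 libraries against 3 the exact permutation test (2-sided) cannot give a p below 0.1, so none of them can pass a threshold of 0.05. The ratio of the ligand Tnfsf10 to its receptor Tnfrsf10b was 1.26, 1.17 and 1.08 in HepLPC replicates 1 to 3, 1.77, 1.495 and 1.89 in PBS replicates 1 to 3 and 1.56, 2.09 and 1.61 in normal replicates 1 to 3. HepLPC livers lay below both other groups with no overlap, by -0.55 against PBS livers and by -0.59 against normal livers (exact permutation p = 0.1 for both, n = 3 each, and adjustment over the 9 could only raise it). PBS and normal livers differed by -0.04 (exact permutation p = 0.9, n = 3 each). In plain RPKM there were 3.12, 3.25 and 2.72 units of Tnfsf10 per unit of Tnfrsf10b in HepLPC replicates 1 to 3, against 4.82, 3.40 and 4.76 in PBS and 4.81, 8.51 and 4.82 in normal replicates 1 to 3. On that scale the log2 ratio in HepLPC livers differed by -0.50 from PBS livers and by -0.95 from normal livers (exact permutation p = 0.1 for both, n = 3 each). PBS and normal livers, which overlapped, differed by -0.45 (exact permutation p = 0.3, n = 3 each), a larger difference than with the added 1.

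The ratio of the inhibitor Cflar to Casp8 was 0.94, 1.23 and 0.90 in HepLPC replicates 1 to 3, 0.85, 0.51 and 0.68 in PBS replicates 1 to 3 and 0.79, 1.13 and 0.92 in normal replicates 1 to 3. The highest HepLPC value and the highest PBS value lay in the libraries that stood apart, HepLPC replicate 2 and PBS replicate 1. HepLPC livers lay above PBS livers by 0.34 without overlap (exact permutation p = 0.1, n = 3 each), and PBS and normal livers overlapped (-0.27, exact permutation p = 0.2, n = 3 each). HepLPC and normal livers differed by 0.08 (exact permutation p = 0.6, n = 3 each). In plain RPKM the 3 differences were 0.49 in HepLPC against PBS, -0.39 in PBS against normal and 0.10 in HepLPC against normal livers (exact permutation p = 0.1, 0.2 and 0.6, n = 3 each). The ratio of Cflar to Fadd overlapped between all groups, with differences of 0.22 in HepLPC against PBS, -0.04 in PBS against normal and 0.18 in HepLPC against normal livers (exact permutation p = 0.4, 0.8 and 0.6, n = 3 each).

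**Figure D3:**
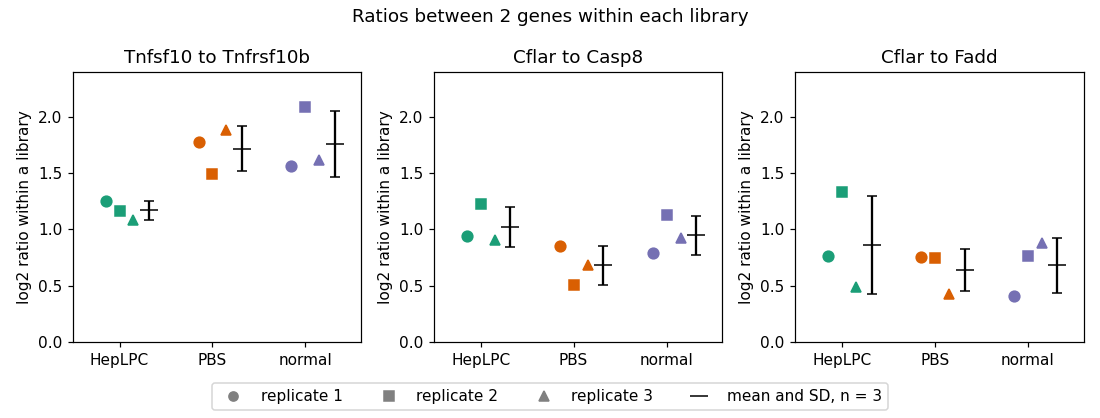
Log2 ratio of RPKM + 1 of 2 genes within each library (y axis, from 0) for the HepLPC, PBS and normal groups, with 1 symbol per replicate and the mean and SD (n = 3). The Tnfsf10 to Tnfrsf10b ratio lies between 1.08 and 1.26 in HepLPC livers, below all 6 other libraries.

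The genes whose levels over the 9 libraries were most like each of these were taken by Pearson correlation of log2(RPKM + 1) among tested genes, as a description, since the libraries share groups and the 2 departing libraries. Fam76a, Card10 and Crim1 were most like Tnfsf10 (r = 0.978, 0.975 and 0.972). Zdhhc13, Synpo and Atad2 were most like Tnfrsf10b (r = 0.98, 0.976 and 0.971), and Nudt21, Alpl and Arl6ip5 most like Fas (r = 0.978, 0.965 and 0.953). Ajuba, Pigs and Slc35a2 came first for Casp8 (r = 0.982, 0.978 and 0.974), and Jrk, Cdk12 and Rrm2b for Ripk1 (r = 0.989, 0.986 and 0.986). Cc2d1b, Taf1c and Dlgap4 came first for Tnfrsf1a (r = 0.969, 0.957 and 0.955), Dazap1, Dhx38 and Msantd2 for Fadd (r = 0.945, 0.941 and 0.941) and Meaf6, Bbip1 and Clns1a for Cflar (r = 0.967, 0.95 and 0.944). Among the 8 themselves, Tnfsf10 and Fas had r = 0.853, Tnfrsf10b and Casp8 0.842, and Cflar and Fadd -0.47, over the same 9 libraries.

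Around these 8 genes, 92 further genes of the pathway were examined in 8 lists, and 70 were abundant enough to test. In HepLPC against PBS livers 3 of the 70 fell and 0 rose by limma, which is 4.29% called, beside 3.07% of all tested genes. In PBS against normal livers 10 rose and 0 fell, which is 14.3% called, beside 11.3% of all tested genes. Between HepLPC and normal livers 0 of 70 were called by limma or by voom on the recovered reads, and 9 had an unadjusted limma p under 0.05. Limma called 0.0809% of all tested genes there. The median log2 fold changes of the 70 were -0.20, 0.32 and 0.11, beside -0.145, 0.184 and 0.05 for all tested genes.

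Of the other ligands and their receptors, Tnfrsf12a was called in both comparisons with PBS livers. Tnfrsf12a, which encodes the TWEAK receptor Fn14 and carries no death domain, was at 3.28, 2.41 and 2.50 RPKM in HepLPC replicates 1 to 3, 6.64, 8.96 and 5.36 RPKM in PBS replicates 1 to 3 and 1.88, 1.71 and 2.52 RPKM in normal replicates 1 to 3. All PBS libraries lay above the libraries of both other groups. It fell in HepLPC against PBS livers (-1.08, SE 0.19, limma adjusted p = 0.0184) and rose in PBS against normal livers (1.38, SE 0.19, limma adjusted p = 0.00192). The fall was lost in 4 of 17 alternatives, among them those without HepLPC replicate 2 (limma adjusted p = 0.0508), without both PBS replicate 1 and HepLPC replicate 2 (0.0566) and with only the HepLPC and PBS libraries in the model (0.0673). Tnfsf12, which encodes TWEAK, was at 3.13, 5.39 and 3.95 RPKM in HepLPC, 4.52, 5.81 and 5.95 RPKM in PBS and 3.45, 2.86 and 3.03 RPKM in normal replicates 1 to 3, and rose in PBS against normal livers (0.64, SE 0.17, limma adjusted p = 0.0458), a call lost in 10 of 17 alternatives.

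The other death receptor ligands were scarcely measured. Faslg, the ligand of Fas, was between 0.019 and 0.0683 RPKM in HepLPC, 0.0214 and 0.0865 RPKM in PBS and 0.041 and 0.0758 RPKM in normal libraries, on 3 to 15 reads. Tnf was listed at 0 in all libraries but PBS replicate 2, where it was at 0.0287 RPKM. Both were below the filter and not tested, and a difference in either was not detectable at this depth. Of 9 listed ligands in the files, Faslg and Tnf included and Tnfsf10 not, only 1 was abundant enough to test. Among 5 tested receptors 2 rose in PBS against normal livers by limma, beside 10.4% of all tested genes, Tnfrsf12a and the death receptor 6 gene Tnfrsf21, at 1.01 ± 0.448 RPKM in HepLPC, 1.44 ± 0.557 RPKM in PBS and 0.396 ± 0.14 RPKM in normal livers (0.78, SE 0.22, limma adjusted p = 0.047 for PBS against normal), and its call was lost in 10 of 17 alternatives. The second TNF receptor, Tnfrsf1b, differed by -0.24 in HepLPC against PBS (SE 0.24, limma adjusted p = 0.652) and 0.27 in PBS against normal livers (SE 0.24, adjusted p = 0.525). The decoy receptor osteoprotegerin, Tnfrsf11b, which binds TRAIL, differed by 0.02 (SE 0.26, limma adjusted p = 0.981) and 0.34 (SE 0.26, adjusted p = 0.448), and the first became -0.004 without both PBS replicate 1 and HepLPC replicate 2.

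Of 18 tested adaptors and ubiquitin regulators limma called 1 higher in PBS against normal livers, beside 10.4% of all tested genes. In HepLPC against PBS livers limma called 0 of the 18, beside 3.07% of all tested genes. There 3 had an unadjusted limma p under 0.05 and voom on the recovered reads called 1. The median fold change of the 18 was -0.23 in HepLPC against PBS and 0.32 in PBS against normal livers, beside -0.145 and 0.184 for all tested genes. The called gene was Tnfaip3, which encodes A20, a feedback inhibitor of NF-kB. It was at 0.864, 0.81 and 1.35 RPKM in HepLPC, 1.98, 1.92 and 2.09 RPKM in PBS and 0.749, 0.974 and 0.928 RPKM in normal replicates 1 to 3. It rose in PBS against normal livers (0.67, SE 0.14, limma adjusted p = 0.0131) and its HepLPC against PBS difference did not pass (-0.59, SE 0.14, limma adjusted p = 0.0513), although these groups did not overlap and voom called Tnfaip3 lower there (-1.03, SE 0.20, adjusted p = 0.035). The rise was lost without normal replicate 1 (limma adjusted p = 0.0591) or PBS replicate 3 (0.0565). Tradd, the adaptor of TNF receptor 1, differed by -0.25 (SE 0.17, limma adjusted p = 0.506) in HepLPC against PBS and by 0.47 (SE 0.17, adjusted p = 0.112) in PBS against normal livers.

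Of 12 tested NF-kB genes limma called 1 lower in HepLPC against PBS livers, beside 2.93% of all tested genes, and 3 higher in PBS against normal livers, beside 10.4%. Relb, a subunit of the non-canonical NF-kB dimer, was at 0.556, 0.746 and 0.776 RPKM in HepLPC, 1.64, 1.82 and 1.82 RPKM in PBS and 0.724, 0.549 and 0.572 RPKM in normal replicates 1 to 3. It fell in HepLPC livers (-0.71, SE 0.12, limma adjusted p = 0.0155) and rose in PBS livers (0.77, SE 0.12, limma adjusted p = 0.00333). Only the 3 PBS libraries reached 1 RPKM, so Relb passed the filter through the group where it was high. Its calls, and its place in the counts above, are therefore not independent of the filter. The fall was lost in 4 of 17 alternatives, among them those without PBS replicate 3 (limma adjusted p = 0.0712) or HepLPC replicate 1 (0.0656), and with only the HepLPC and PBS libraries in the model (0.0774). Its partner Nfkb2 rose in PBS against normal livers by 0.69 (SE 0.13, limma adjusted p = 0.0104) and the inhibitor gene Nfkbie by 0.63 (SE 0.18, adjusted p = 0.0494), the second call lost in 11 of 17 alternatives. The median fold change of the 12 was -0.42 in HepLPC against PBS and 0.47 in PBS against normal livers, beside -0.145 and 0.184 for all tested genes.

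Of 7 tested caspases beside Casp8, limma called 1 higher in PBS against normal livers, beside 10.4% of all tested genes. In HepLPC against PBS livers 0 of the 7 were called by limma or voom, and 2 had an unadjusted limma p under 0.05. Limma called 3.07% of all tested genes there. Casp1, the inflammatory caspase that matures interleukin-1 beta, was at 3.25, 4.19 and 4.84 RPKM in HepLPC, 6.49, 6.76 and 6.94 RPKM in PBS and 2.99, 3.69 and 3.53 RPKM in normal replicates 1 to 3. It rose in PBS against normal livers (0.81, SE 0.14, limma adjusted p = 0.00658), a call kept in 17 of 17 alternatives, and the HepLPC against PBS difference did not pass (-0.61, SE 0.14, limma adjusted p = 0.0516).

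Downstream of caspase-8, Bid, which carries the signal to mitochondria, differed by -0.26 (SE 0.14, limma adjusted p = 0.413) in HepLPC against PBS and by 0.13 (SE 0.14, adjusted p = 0.606) in PBS against normal livers, the sign of the second turning after rescaling. Xiap, the caspase inhibitor, differed by 0.15 (SE 0.28, limma adjusted p = 0.795) and -0.21 (SE 0.28, adjusted p = 0.669), and the second became 0.053 without both PBS replicate 1 and HepLPC replicate 2. Of 10 tested genes of this list limma called 1, beside 10.4% of all tested genes called higher in PBS against normal livers. This was Diablo, the mitochondrial antagonist of Xiap, higher in PBS livers (0.48, SE 0.12, limma adjusted p = 0.0304) and lost in 8 of 17 alternatives. Of 3 tested necroptosis genes limma called 1 in PBS against normal livers, too few to set beside the 10.4% of all tested genes. Ripk3, the kinase that phosphorylates Mlkl, was at 1.55, 2.04 and 2.04 RPKM in HepLPC, 2.41, 2.57 and 1.75 RPKM in PBS and 1.18, 0.917 and 1.23 RPKM in normal replicates 1 to 3. It rose in PBS against normal livers (0.61, SE 0.15, limma adjusted p = 0.0269), lost in 7 of 17 alternatives. Ripk3 differed by -0.17 in HepLPC against PBS livers (SE 0.15, limma adjusted p = 0.603). Mlkl, the pore-forming end point of necroptosis, differed by -0.10 (SE 0.19, limma adjusted p = 0.8) and 0.24 (SE 0.19, adjusted p = 0.473).

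Interferon genes were set beside Tnfsf10 because type I interferon is known to induce it. Of 14 tested genes 0 were called in PBS against normal livers by limma or voom, where limma called 11.3% of all tested genes. Of the 14, 1 had an unadjusted limma p under 0.05 there. Their median fold change was 0.22, beside 0.184 for all tested genes. In HepLPC against PBS livers the median was 0.14, beside -0.145 for all tested genes, with 10 of the 14 above 0. There 1 of the 14 was called lower by limma, beside 2.93% of all tested genes. That gene, Ifit1, was at 0.0751, 0.025 and 0 RPKM in HepLPC, 4.21, 5.68 and 5.20 RPKM in PBS and 7.99, 2.06 and 1.65 RPKM in normal replicates 1 to 3 (-2.54, SE 0.38, limma adjusted p = 0.0106). It rested on 0 to 3 reads in HepLPC libraries. Its neighbours Ifit2 and Ifit3 differed by 0.00 (SE 0.21, limma adjusted p = 0.993) and 0.19 (SE 0.15, adjusted p = 0.584). Ifit genes are a family of similar sequences, and the sources used here do not say how reads shared among them were counted, so the Ifit1 value is uncertain. The Ifit1 call was lost without PBS replicate 3 (limma adjusted p = 0.0534).

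**Figure D4:**
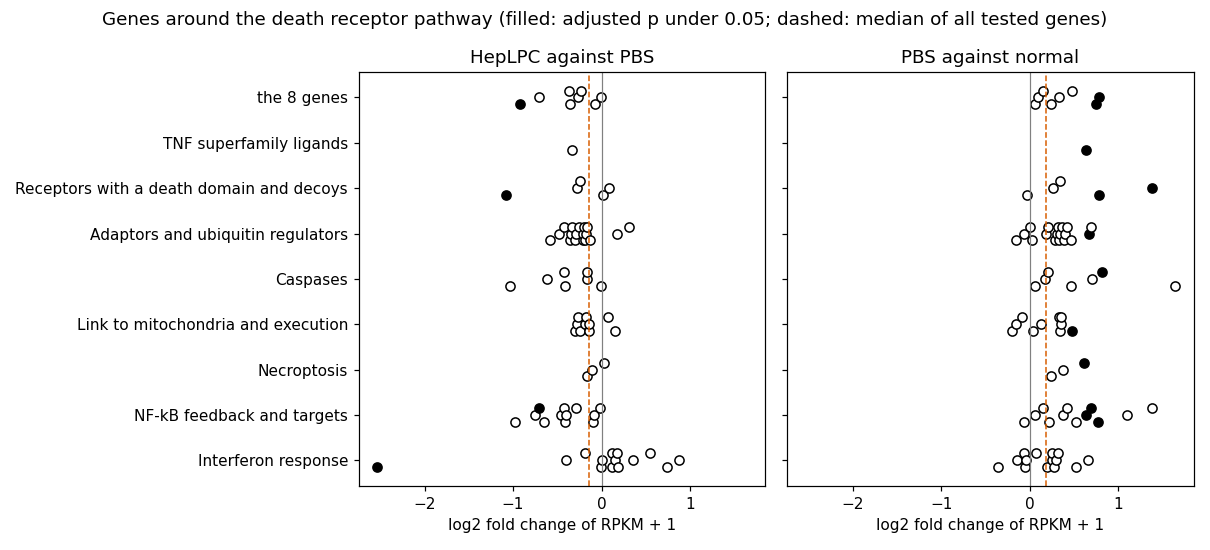
Log2 fold change of RPKM + 1 (x axis) of every tested gene of the 8 and of the 8 surrounding lists (y axis) in HepLPC against PBS and PBS against normal livers. Filled points are called at an adjusted p under 0.05, and the dashed line is the median of all tested genes; all called points lie below 0 on the HepLPC against PBS side and above 0 on the PBS against normal side.

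Markers of the cell types that could supply these transcripts moved between the same groups, and their part in the values above was not tested. Of all tested genes, limma called 2.93% lower and 0.135% higher in HepLPC against PBS livers. It called 10.4% higher and 0.944% lower in PBS against normal livers. The sums below lean on the most abundant markers, such as Clec4f, Lyz2, Col3a1 and Alb, at means of 111.1, 108.7, 64.7 and 51800 RPKM in PBS livers. Clec4f, of the macrophage and Kupffer cell list, was at means of 97.2, 111.1 and 72.7 RPKM in HepLPC, PBS and normal livers. It was called in neither comparison (limma adjusted p = 0.639 in HepLPC against PBS and 0.0605 in PBS against normal livers). The summed RPKM of 10 macrophage and Kupffer cell markers was 159.6 to 229.2 in HepLPC, 282.7 to 386.8 in PBS and 140.3 to 181.5 in normal libraries, and Gpnmb, Lyz2 and Trem2 were the 3 called lower in HepLPC against PBS livers and the 3 called higher in PBS against normal livers. The remaining 7 were called in neither comparison. The 8 myofibroblast markers summed to 46.5 to 53.3 RPKM in HepLPC, 83.1 to 128.1 in PBS and 21.0 to 25.3 in normal libraries. Of 7 tested, 3 fell in HepLPC against PBS livers (Loxl1, Col1a1 and Col3a1) and 7 rose in PBS against normal livers. The 7 duct markers summed to 10.4 to 20.04 RPKM in HepLPC, 50.3 to 179.1 in PBS and 8.74 to 10.5 in normal libraries, and all 6 tested were called in both comparisons. Among the called markers of all these lists, Sox9 and Cftr (duct), Trem2 (macrophage) and Loxl1 (myofibroblast) reached 1 RPKM only in the 3 PBS libraries. They passed the filter through the group where they were high, so the counts holding them are not independent of the filter. The 8 stellate cell markers summed to 21.4 to 36.1 RPKM in HepLPC, 31.7 to 55.9 in PBS and 21.4 to 23.6 in normal libraries, with 1 of 7 tested lower in HepLPC livers (Cygb) and 2 higher in PBS livers (Cygb and Des). The 13 T and NK cell markers summed to 16.4 to 27.7 RPKM in HepLPC, 20.4 to 23.0 in PBS and 14.0 to 19.2 in normal libraries. By limma or voom 0 of 8 tested were called in either comparison, with 1, Cd4, at an unadjusted limma p under 0.05 in each. This sum leans on Cd4, at means of 5.845, 9.187 and 5.941 RPKM in HepLPC, PBS and normal livers. Which cells supplied Cd4 was not tested. The 7 sinusoidal endothelial markers summed to 105.4 to 132.3 RPKM in HepLPC, 126.0 to 139.8 in PBS and 114.2 to 127.8 in normal libraries, with 0 called by limma or voom in either comparison, and 0 and 2 at an unadjusted limma p under 0.05 in HepLPC against PBS and PBS against normal livers. The 8 hepatocyte markers summed to 70470 to 85200 RPKM in HepLPC, 62610 to 70950 in PBS and 66930 to 87730 in normal libraries, so the labelled tissue was present in each. Of these 0 were called by limma or voom in either comparison, with 1 at an unadjusted limma p under 0.05 in each. No marker of these lists was at 0 in every library.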

How the data were processed

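RNA from 9 whole-liver samples of rats, 3 per group, was sequenced by the authors with a TruSeq RNA kit on Illumina instruments, per the labels' protocols. The deposited values are RPKM per gene, per the file headers. HISAT2 and StringTie appear in the submitters' processing notes, as does hg19, a human build. Gene symbols in the files are those of rat, so the build behind the values is uncertain, and the sources used here do not say how reads shared by similar genes were handled. Groups and replicate numbers came from the sample titles.

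Whole reads were recovered from the RPKM steps to within 0.01 read for 20959 of the 20959 genes detected in at least 3 libraries, with 99.8% of implied gene lengths coming out whole. Recovered depth was 17.4 to 21.8 M reads per library. Intervals are for the difference between group means, from the limma SE, which rests on the spread between libraries.

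Tests used limma 3.58.1 in R 4.3.3 (lmFit and eBayes with trend, 2-sided) on log2(RPKM + 1) for genes reaching 1 RPKM in 3 libraries, fitting the 9 libraries together with 6 residual degrees of freedom, and Benjamini-Hochberg adjustment over 11124 genes. The pseudocount understates changes of low genes. The fit of the 9 libraries was checked on simulated data, with known changes given to the more abundant genes and noise drawn independently for each gene and library. That simulation held no library that stood apart, and the alternatives were not checked in this way. Within-library ratios were tested with exact permutation tests (scipy 1.17.1). The 17 alternatives of each fit included a pseudocount of 0.1, no filter, median-of-ratios scaling, only the 2 groups compared, a replicate block, library weights, voom on recovered reads and leaving out libraries.

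The 8 genes and the lists were chosen with earlier results of these data known. Named genes were the 8, up to 6 called genes per list and comparison, a fixed panel (Faslg, Tnf, Tnfrsf1b, Tnfrsf11b, Ripk3, Mlkl, Bid, Xiap and Tradd, with other members not reported here), and the 3 genes most like each of the 8. Markers of other cell types were to be named by highest mean RPKM. Those named here were instead named because a count was small, a sum leaned on them or they passed the filter through the PBS group alone. They were named after their values were seen. Of the listed genes, Tnfrsf23 matched no row. Protein sequences were not used here.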

Additional observations from a re-analysis of the deposited data

How the results depend on the processing

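Leaving out 1 library at a time, the number of the 8 genes called ranged from 0 to 1 in HepLPC against PBS, 0 to 2 in PBS against normal and stayed at 0 in HepLPC against normal livers. It was 0 and 0 with the replicate block, 2 and 4 with library weights, 0 in HepLPC against PBS livers with only those 2 groups in the model, and 1 in PBS against normal livers after median-of-ratios scaling. In HepLPC against normal livers the count was 0 in 17 of 17 alternatives. Over all tested genes, leaving out 1 library gave 90 to 398 calls in HepLPC against PBS, 562 to 1809 in PBS against normal and 1 to 14 in HepLPC against normal livers, against 341, 1262 and 9 as reported. In the same order the calls were 549, 2016 and 3 with no filter, 204, 782 and 5 after median-of-ratios scaling, 198, 787 and 1 with the replicate block and 810, 3827 and 51 with library weights. Without both PBS replicate 1 and HepLPC replicate 2 they were 3168 in PBS against normal and 16 in HepLPC against normal livers, voom called 0 in HepLPC against normal livers, and only the 2 groups gave 86 in HepLPC against PBS livers. In PBS against normal livers 566 were higher and 216 lower after scaling, beside 1157 and 105 as reported, and 21 and 183 in HepLPC against PBS livers, beside 15 and 326. Scaling moved the median of all genes from 0.184 to -0.009 in PBS against normal and from -0.145 to 0.009 in HepLPC against PBS livers. The causes were not tested, and a fit that leaves libraries out also rests on a smaller sample.

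The replicate block assumes that equal numbers pair samples. Deviations of same-numbered libraries correlated between -0.412 and 0.31. Differently numbered libraries were not compared, and PBS replicate 1 and HepLPC replicate 2 stood apart, so these values can neither show nor exclude pairing. With the block Tnfsf10 (adjusted p = 0.0661), Tnfrsf12a (0.0577) and Relb (0.0542) were no longer called in HepLPC against PBS livers. In PBS against normal livers Tnfsf10 and Tnfrsf10b (0.0611 each), Tnfsf12 (0.0804), Tnfrsf21 (0.0632), Diablo (0.0802), Ripk3 (0.0744) and Nfkbie (0.101) were no longer called.

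Signs that turned belonged to differences that were not called. Under median-of-ratios scaling these were, in PBS against normal livers, Fadd (-0.079), Cflar (-0.14), Ripk1 (-0.046) and Bid (-0.066), and, in HepLPC against PBS livers, Tnfrsf1a (0.109), Cflar (0.15) and Mlkl (0.038). With library weights they were Mlkl in HepLPC against PBS livers (0.008) and Fadd, Casp8 and Ripk1 in HepLPC against normal livers (0.052, 0.042 and 0.107). Without both PBS replicate 1 and HepLPC replicate 2 they were Xiap in PBS against normal (0.053), Tnfrsf11b in HepLPC against PBS (-0.004) and Fadd, Casp8 and Ripk1 in HepLPC against normal livers (0.075, 0.044 and 0.131). Leaving out 1 library, in PBS against normal livers Fadd ranged from -0.019 to 0.225 and Xiap from -0.383 to 0.053. In HepLPC against PBS livers Cflar ranged from -0.042 to 0.011, Tnfrsf1b from -0.429 to 0.008, Mlkl from -0.259 to 0.043, Tnfrsf11b from -0.121 to 0.09 (also -0.08) and Xiap from -0.105 to 0.412 (also -0.079). In HepLPC against normal livers Fadd ranged from -0.297 to 0.075, Casp8 from -0.112 to 0.044 (also 0.041) and Ripk1 from -0.262 to 0.131 (also 0.011). Within-library ratios ranged, leaving out 1 library, from -0.661 to -0.465, -0.134 to 0.131 and -0.683 to -0.418 for Tnfsf10 to Tnfrsf10b, from 0.241 to 0.429, -0.352 to -0.174 and -0.025 to 0.169 for Cflar to Casp8, and from -0.019 to 0.405, -0.175 to 0.071 and -0.056 to 0.368 for Cflar to Fadd, each in HepLPC against PBS, PBS against normal and HepLPC against normal livers.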

Other observations

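The inflammatory caspases Casp4 and Casp12, which lie beside Casp1 in rodents, differed between libraries of the same group. Casp12 was at 2.64, 1.24 and 13.3 RPKM in HepLPC replicates 1 to 3, 11.4, 5.07 and 12.3 RPKM in PBS replicates 1 to 3 and 1.09, 1.28 and 5.91 RPKM in normal replicates 1 to 3. HepLPC replicate 3 and normal replicate 3 lay well above the other libraries of their groups. Casp4 was at 5.52, 5.93 and 10.9 RPKM in HepLPC, 13.1, 6.54 and 10.97 RPKM in PBS and 5.43, 4.27 and 7.74 RPKM in normal replicates 1 to 3, with its highest HepLPC and normal values in the same libraries. Neither passed in any of the comparisons (limma adjusted p = 0.502 and 0.158 for Casp12, 0.544 and 0.172 for Casp4, in HepLPC against PBS and PBS against normal livers). These genes were named after their values were seen.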
